A study of Mus musculus with 4 samples.

Results

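Granzymes are the serine proteases carried in the granules of cytotoxic T cells and natural killer (NK) cells, and perforin, encoded by Prf1, forms the pore through which they reach the cytosol of a target cell. The group described here was 10 mouse genes, Gzma, Gzmb, Gzmc, Gzmd, Gzme, Gzmf, Gzmg, Gzmk, Gzmm and Prf1, taken by symbol from the 24391 genes listed for each sample. They were chosen by the read counts of Gzme, which an earlier look at these files had shown to be high in K-Ras Mll4-/- tumours, together with the family it belongs to, so the difference between the groups is given for them as a description and supports nothing by itself. The question was whether Gzme differed together with its neighbours Gzmc to Gzmg or together with the genes of cytotoxic cells.

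RNA was sequenced from 4 mouse lung tumour samples. The 2 samples labelled K-Ras came from K-RasLSL-G12D tumours, which carry an oncogenic K-Ras allele held silent by a lox-stop-lox cassette until Cre acts. The 2 samples labelled K-Ras Mll4-/- came from K-RasLSL-G12D;Mll4fl/fl tumours, which carry the same allele and floxed copies of Mll4, a histone H3 lysine 4 methyltransferase gene now named Kmt2d. Cells bearing CD45, a surface antigen of leukocytes, were removed with magnetic beads from every sample before RNA extraction, so the cells that normally carry granzymes had been depleted in both groups. The source of Cre and the strain, sex and age of the mice are not given in the sources used here. The labels number the samples 1 and 2 in each group without saying whether they came from separate mice, so the spread between them may be technical. In these bulk samples, fewer cells of a type and less RNA per cell cannot be told apart.

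Each sample had between 26683033 and 36677987 reads on genes. A floor of 3 reads for detection corresponded to 0.0818 to 0.112 CPM, where CPM is a gene's read count scaled to a common library size. Kmt2d itself was at 367 and 317 CPM in the K-Ras Mll4-/- samples and 395 and 526 CPM in the K-Ras samples, and a total per gene cannot show whether single exons were lost. Lung epithelial transcripts were present in all 4 samples, with Sftpc, a surfactant gene, between 5748 and 10747 CPM and Epcam, an epithelial adhesion gene, between 101 and 233 CPM. Ptprc, the gene of CD45, was still detected at 143 to 274 CPM, and its ranges in the 2 groups overlapped.

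In the mouse the family is spread over 3 chromosomes. Gzma and Gzmk, which encode trypsin-like granzymes, lie on chromosome 13. Gzmm, the gene of a protease that cuts after methionine or leucine, and Prf1 lie on chromosome 10. The remaining 6, Gzmb to Gzmg, lie in a cluster on chromosome 14 that also holds mast cell protease genes. Granzyme B cuts after aspartate and triggers apoptosis through caspases and Bid, whereas granzymes C to G are rodent members whose functions are less well defined. All 10 are annotated as protein coding in RefSeq.

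The promoters of the clustered genes are shown first because they are nearly alike while the levels of the genes were not: Gzme and Gzmc were well detected, Gzmd and Gzmf were not. Each sequence covers 250 bases before to 50 bases after an annotated start, from RefSeq on GRCm38.p6, and capitals mark exact matches to ACCACA, the core letters bound by RUNX factors (its reverse complement is TGTGGT), and to TGACGTCA, the cyclic AMP response element or CRE, searched on both strands.
Gzme, chr14:56120576-56120875, minus strand: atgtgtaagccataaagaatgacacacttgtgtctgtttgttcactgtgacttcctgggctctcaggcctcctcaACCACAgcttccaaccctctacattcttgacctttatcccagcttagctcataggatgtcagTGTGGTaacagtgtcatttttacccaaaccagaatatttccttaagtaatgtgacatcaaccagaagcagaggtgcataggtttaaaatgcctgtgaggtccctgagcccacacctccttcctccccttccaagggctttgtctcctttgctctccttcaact
Gzmd, chr14:56132544-56132843, minus strand: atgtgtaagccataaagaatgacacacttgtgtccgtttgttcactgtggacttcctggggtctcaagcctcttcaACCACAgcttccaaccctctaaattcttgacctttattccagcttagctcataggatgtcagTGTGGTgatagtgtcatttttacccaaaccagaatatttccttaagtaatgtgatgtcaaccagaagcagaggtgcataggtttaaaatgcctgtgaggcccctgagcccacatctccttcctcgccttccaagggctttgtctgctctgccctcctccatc
Gzmc, chr14:56234608-56234907, minus strand: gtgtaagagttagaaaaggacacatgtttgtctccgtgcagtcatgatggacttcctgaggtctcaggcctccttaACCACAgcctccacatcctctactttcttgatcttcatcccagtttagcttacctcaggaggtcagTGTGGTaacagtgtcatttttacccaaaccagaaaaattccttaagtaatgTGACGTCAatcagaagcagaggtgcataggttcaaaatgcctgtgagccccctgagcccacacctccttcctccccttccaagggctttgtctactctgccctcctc
Gzmf, chr14:56211358-56211657, minus strand: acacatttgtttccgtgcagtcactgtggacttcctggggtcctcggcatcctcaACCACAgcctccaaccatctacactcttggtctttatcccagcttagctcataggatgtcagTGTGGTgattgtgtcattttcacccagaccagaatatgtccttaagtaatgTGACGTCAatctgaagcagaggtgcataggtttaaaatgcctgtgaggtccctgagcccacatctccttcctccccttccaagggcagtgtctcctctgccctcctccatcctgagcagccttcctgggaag
Aligned over 299 bases, the Gzme and Gzmd promoters were 94.0% identical, and Gzme and Gzmc were 86.7% identical over 293 bases. The RUNX letters occurred 2 times in each of the 4 windows printed, and at least 1 time in 9 of the 10 members, Gzmk being the exception, against 16.8% of the 32851 promoter windows of the same length in the table. The CRE letters occurred in Gzmc, Gzmf and Gzmg and not in Gzme or Gzmd, against 1.79% of all windows. Letters of T-box factors occurred in 0 of the 10 members, against 1.28% of all windows. Those of STAT factors occurred in 2 (8.3%) and those of AP-1 in 1 (7.81%). A motif of only thymines and adenines occurred in 5 (8.74%). The promoters of Gzmc to Gzmg were 86.05% to 93.98% identical in pairs, so their matches are not independent of each other, and Gzmm had 2 windows. The motifs were chosen after these sequences were seen, and a match describes letters only.

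The members differed widely in level. Gzma, Gzmb, Gzmm and Prf1 were detected in every sample, with a ratio of the group means between 0.787 and 1.36. Gzme and Gzmc were detected in every sample and were higher in K-Ras Mll4-/- tumours. Gzmd, Gzmf and Gzmg had 0 to 3 reads in each sample. Gzmk was low throughout. Of the 10, 7 passed the count filter of the fit across all genes.

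**Figure D1:**
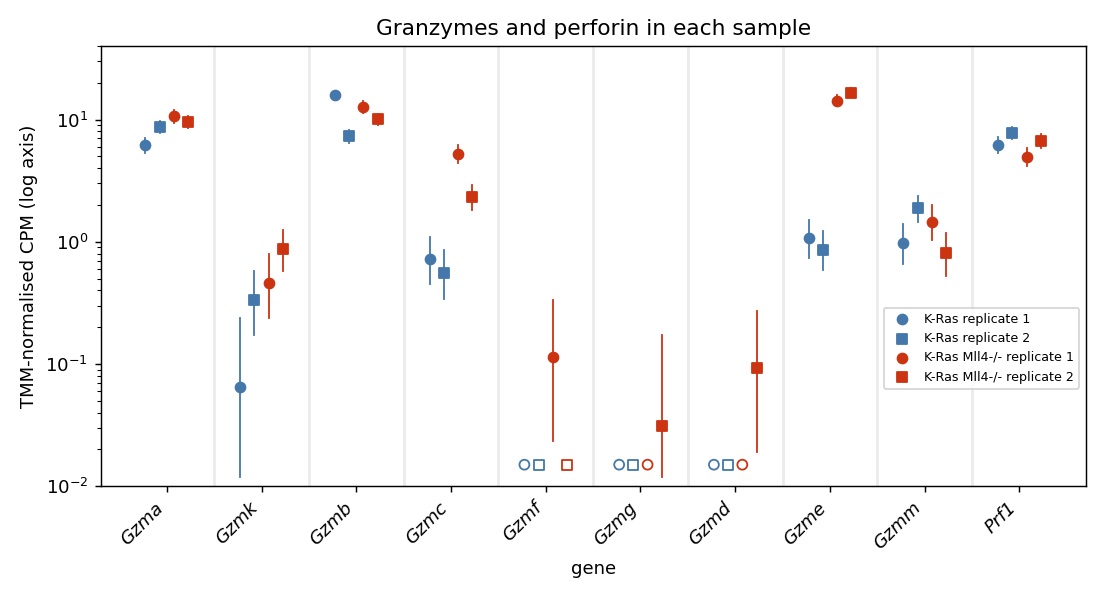
Level of each member in each sample, as TMM-normalised CPM on a log axis. Filled points are samples, bars are exact 95% Poisson intervals that cover counting error only and are clipped at the lower edge, and open points at the bottom mark samples with 0 reads. Gzme and Gzmc are the members whose K-Ras Mll4-/- points stand clear of the K-Ras points by more than these bars, while Gzmb, Gzmm and Prf1 overlap between groups.

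Gzme, the gene of granzyme E, had 374 and 533 reads in the K-Ras Mll4-/- samples, or 14.2 and 16.5 CPM after TMM scaling (trimmed mean of M values). In the K-Ras samples it had 33 and 31 reads, or 1.08 and 0.858 CPM. Both K-Ras Mll4-/- samples were far above both K-Ras samples, and the samples within each group lay close together. The group means were 15.4 ± 1.62 CPM and 0.968 ± 0.157 CPM (SD, n = 2 each), a ratio of 15.9, and the fitted log2 fold change was 3.99 (SE 0.27), the 65th highest of the 16001 genes tested.

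Gzmc, the gene of granzyme C, had 137 and 75 reads in the K-Ras Mll4-/- samples, or 5.22 and 2.33 CPM. In the K-Ras samples it had 22 and 20 reads, or 0.719 and 0.553 CPM. The groups did not overlap, but replicate 1 of the K-Ras Mll4-/- group was 2.24 times replicate 2, a wider spread than that of Gzme. The group means were 3.77 ± 2.04 and 0.636 ± 0.117 CPM (SD, n = 2 each), a ratio of 5.93, and the log2 fold change was 2.56 (SE 0.55). It was 1.87 without K-Ras Mll4-/- replicate 1 and 3.02 without K-Ras Mll4-/- replicate 2.

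Within the K-Ras Mll4-/- group Gzmc was higher in replicate 1 and Gzme was higher in replicate 2. The exact 95% Poisson intervals of Gzmc were 4.38 to 6.17 CPM in replicate 1 and 1.83 to 2.92 CPM in replicate 2, and those of Gzme were 12.8 to 15.8 and 15.2 to 18.0 CPM. The ratio of Gzme to Gzmc CPM was 2.73 in replicate 1 and 7.11 in replicate 2. In the K-Ras samples that ratio was 1.5 and 1.55.

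Gzmd, Gzmg and Gzmf, whose transcripts were nearer to that of Gzme than those of Gzmc and Gzmb were, stayed at the limit of detection. Gzmd had 0 reads in K-Ras Mll4-/- replicate 1 and 3 in replicate 2. Gzmf had 3 and 0, and Gzmg 0 and 1. All 3 genes had 0 reads in both K-Ras samples. No count exceeded 3 reads, so no fold is given, and the exact 95% Poisson interval of a count of 0 reached between 0.102 and 0.140 CPM. Within the sum of Gzmc to Gzmg, Gzme took between 60.0% and 87.1% of the reads of a sample, and nearly all the rest was Gzmc.

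Reads aligned to more than 1 place were tallied apart in the files, so the near-identical copies could have lost reads. The longest annotated Gzme and Gzmd transcripts were 94.8% identical over 916 aligned bases, and Gzme and Gzmg 90.8% identical. Cut into overlapping windows of 50 bases and compared with all annotated transcripts, 79.3% of the Gzme windows, 78.1% of the Gzmd windows and 80.2% of the Gzmg windows belonged to 1 gene alone. The share was 95.9% for Gzmc, 92.6% for Gzmf and 100% for Gzma, Gzmb, Gzmk, Gzmm and Prf1. In number, 688 windows were unique to Gzme, 715 to Gzmd and 690 to Gzmg. The part of lost reads in the low counts was not tested. The authors' read length is not given in the sources used here, and copies outside annotated transcripts were not examined.

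Gzmb, the gene of granzyme B, was at 12.7 and 10.02 CPM in the K-Ras Mll4-/- samples and 15.8 and 7.33 CPM in the K-Ras samples. The groups overlapped, with the highest and the lowest values both in the K-Ras group. Its log2 fold change of -0.02 (SE 0.42) became 0.64 without K-Ras replicate 1 and -0.49 without K-Ras replicate 2. Prf1 was at 4.95 and 6.70 CPM in the K-Ras Mll4-/- samples and 6.18 and 7.75 CPM in the K-Ras samples, again with overlap, and its log2 fold change was -0.26 (SE 0.28). Gzmm was at 1.45 and 0.807 CPM against 0.981 and 1.88 CPM, with a log2 fold change of -0.35 (SE 0.54) and overlapping groups.

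Gzma, the gene of granzyme A, was at 10.6 and 9.53 CPM in the K-Ras Mll4-/- samples and 6.15 and 8.69 CPM in the K-Ras samples. Its groups did not overlap, though the gap between the nearest samples was small, and the log2 fold change was 0.44 (SE 0.26). Gzmk had 12 and 28 reads in the K-Ras Mll4-/- samples and 2 and 12 reads in the K-Ras samples, or 0.457 and 0.869 CPM against 0.0654 and 0.332 CPM. The log2 fold change, 1.69 (SE 0.84), rests on these few reads and was 1.01 without K-Ras replicate 1 and 3.26 without K-Ras replicate 2.

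The order of the levels changed between the groups. Per kilobase of the longest annotated transcript, Gzme had the highest group mean of the family in K-Ras Mll4-/- tumours at 16.8 CPM per kb, followed by Gzma at 10.1, Gzmb at 7.92, Gzmc at 4.22 and Prf1 at 2.36 CPM per kb. Gzma and Gzmb were close there, with sample ranges of 9.56 to 10.6 and 6.98 to 8.86 CPM per kb. Gzmc, at 5.84 and 2.60 CPM per kb, overlapped with Prf1, at 2.00 and 2.71, which was the higher in replicate 2. In K-Ras tumours the highest were Gzmb at 8.04 and Gzma at 7.45 CPM per kb, whose samples overlapped, then Prf1 at 2.82 CPM per kb. Gzmm at 1.11, Gzme at 1.06 and Gzmc at 0.712 CPM per kb followed, with the samples of Gzmm overlapping those of Gzme and of Gzmc.

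By this count of reads the make-up of the granzyme signal differed. Of the reads on the 9 granzymes, Gzme took 31.8% (exact 95% binomial interval 29.1 to 34.6%) and 41.1% (38.4 to 43.9%) in the K-Ras Mll4-/- samples. In the K-Ras samples it took 4.36% (3.02 to 6.07%) and 4.37% (2.99 to 6.14%). These intervals cover counting error only. Gzmb took 28.4% and 24.9% in the K-Ras Mll4-/- samples against 63.7% and 37.3% in the K-Ras samples, while its own CPM overlapped between groups. The summed level of the 9 granzymes was 44.8 and 40.2 CPM against 24.8 and 19.6 CPM. Of this, Gzmc to Gzmg summed to 19.6 and 19.0 CPM against 1.80 and 1.41 CPM.

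**Figure D2:**
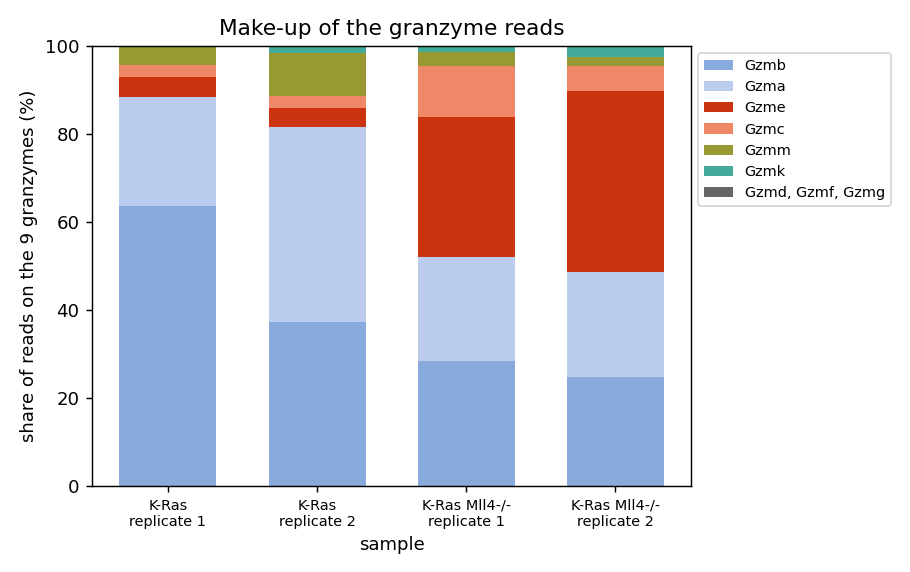
Share of each gene among the reads on the 9 granzymes in each sample, in percent. Gzme fills 31.8% and 41.1% of the bars of the K-Ras Mll4-/- samples and 4.36% and 4.37% of those of the K-Ras samples, and Gzmd, Gzmf and Gzmg together are too few to see.

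The edgeR quasi-likelihood test, with a threshold of 0.05 on the adjusted p, called 0.0375% of the 16001 genes tested and 0 of the 7 members among them. Of the 7, 4 had both K-Ras Mll4-/- samples above both K-Ras samples (Gzma, Gzmc, Gzme and Gzmk), where 29.9% of all tested genes did, and 0 had both below, where 28.5% did. Their median log2 fold change was 0.44, beside -0.01 over all genes tested. At an unadjusted p under 0.05 there were 2 of the 7, Gzme and Gzmc, where 21.8% of all genes were, 11.4% higher and 10.4% lower. DESeq2 and the edgeR likelihood ratio test each called Gzme and Gzmc, where they called 10.4% and 9.39% of their tested genes, and limma-voom called 0 genes. Gzme was also called by the quasi-likelihood test with no count filter, where 0.221% of genes were, and without K-Ras replicate 1, where 3.2% were. With 2 samples against 2, an exact two-sided permutation test of a single gene cannot give a p below 0.333. The contrast is the one by which the family was picked, so nothing is read from these counts.

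Genes of the cells that normally carry granzymes were listed next, from sets chosen with earlier results known. Among 18 NK cell markers, 16 were tested and none was called by the quasi-likelihood test. At an unadjusted p under 0.05 there was 1, where 21.8% of all tested genes were. DESeq2 called 1, where it called 10.4% of its tested genes. For 5 of them both K-Ras Mll4-/- samples were above both K-Ras samples, where 29.9% of all tested genes were. For 3 both were below, where 28.5% were. The median log2 fold change was 0.11. The summed NK level was 52.9 and 47.5 CPM in the K-Ras Mll4-/- samples and 44.6 and 40.2 CPM in the K-Ras samples. Ncr1, the gene of the NK receptor NKp46, was at 1.87 and 2.05 CPM against 2.58 and 2.19 CPM. Klrb1c, which encodes NK1.1, was at 2.59 and 2.98 CPM against 3.20 and 3.15 CPM. Both were thus a little lower in the samples with high Gzme. Klrc1, the gene of the inhibitory receptor NKG2A, differed from them, at 3.66 and 6.67 CPM against 1.67 and 1.91 CPM, with a log2 fold change of 1.53 (SE 0.41), and was the NK marker that DESeq2 and the likelihood ratio test called.

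Of 17 T cell markers, all were tested and none was called by the quasi-likelihood test. At an unadjusted p under 0.05 there were 2, where 21.8% of all tested genes were. DESeq2 called 1, where it called 10.4% of its tested genes. Both K-Ras Mll4-/- samples were above for 3 and below for 2, beside 29.9% and 28.5% of all tested genes. The 3 above were Cd8a, Cd8b1 and Thy1, the last with a log2 fold change of 0.70 (SE 0.31). The 2 below were Zap70 and Cd28, at -0.28 (SE 0.21) and -0.23 (SE 0.20). The groups overlapped for 12 of the markers, and the median log2 fold change was -0.03. The summed level was 255 and 234 CPM against 297 and 155 CPM. Cd3e, a chain of the T cell receptor complex, was at 4.87 and 5.58 CPM against 5.95 and 3.27 CPM, with overlap. The genes of the CD8 co-receptor of cytotoxic T cells were the pair with an unadjusted p under 0.05. Cd8a was at 11.5 and 13.2 CPM against 6.93 and 4.62 CPM, a log2 fold change of 1.10 (SE 0.28), and was the marker that DESeq2 called. Cd8b1 was at 10.05 and 10.05 CPM against 6.21 and 5.17 CPM, a log2 fold change of 0.82 (SE 0.22). Cd4, the co-receptor of helper T cells, overlapped, with a log2 fold change of 0.12 (SE 0.40). Of 7 genes of tissue-resident lymphocytes, 6 were analysed here, with a median log2 fold change of -0.18 and none called by the quasi-likelihood test, by DESeq2 or at an unadjusted p under 0.05.

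Set against these genes, the Gzme level stood apart in both K-Ras Mll4-/- samples. The ratio of Gzme to Prf1 CPM was 2.88 and 2.47 there and 0.175 and 0.111 in the K-Ras samples. Gzme to Gzmb was 1.12 and 1.65 against 0.0685 and 0.117. Per 100 CPM of summed NK markers, Gzme was at 26.9 and 34.8 CPM against 2.42 and 2.14 CPM, and per 100 CPM of summed T cell markers at 5.58 and 7.07 CPM against 0.363 and 0.552 CPM. None of these ratios overlapped between groups, and they share the Gzme counts. Gzme was chosen for its high counts in the K-Ras Mll4-/- samples, so this separation is a description and supports nothing by itself. Beside the log2 fold change of 3.99 for Gzme, the largest among the tested NK and T cell markers was the 1.53 of Klrc1. The same choice of Gzme lies behind that comparison.

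**Figure D3:**
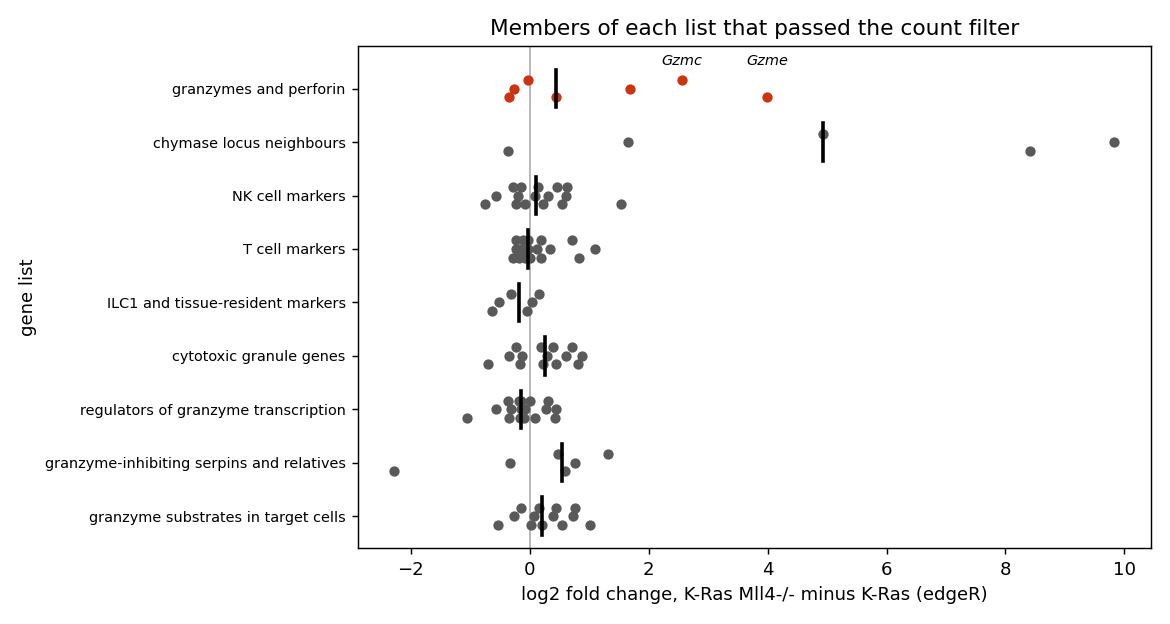
Log2 fold change (K-Ras Mll4-/- minus K-Ras, edgeR) of each tested gene, by gene list. Dots are genes, vertical bars are list medians, and the granzymes and perforin are red. Gzme at 3.99 and Gzmc at 2.56 lie beyond every NK and T cell marker, while the locus neighbours reach 9.83.

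Regulators of granzyme transcription in lymphocytes, 17 genes of transcription factors, cytokines and their receptors, were all tested. None was called by the quasi-likelihood test, by DESeq2 or at an unadjusted p under 0.05. Both K-Ras Mll4-/- samples were above for 1 and below for 2, beside 29.9% and 28.5% of all tested genes. The groups overlapped for 14, and the median log2 fold change was -0.14. The T-box factor gene Tbx21 was at 2.51 and 2.92 CPM against 2.71 and 2.38 CPM, and Eomes, which encodes a related factor, at 1.75 and 2.48 CPM against 2.13 and 2.55 CPM. Runx3, the gene of the RUNX factor of cytotoxic T cells, was at 4.57 and 5.06 CPM against 6.15 and 4.01 CPM. Each of these overlapped between groups. Il2rb, a receptor chain for interleukins 2 and 15, had a log2 fold change of -0.14 (SE 0.29).

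Among the granule genes more were higher than lower. Of 15, 14 were tested, Vamp7 having 0 reads in all samples, and none was called by the quasi-likelihood test. Both K-Ras Mll4-/- samples were above for 7 and below for 1, beside 29.9% and 28.5% of all tested genes. At an unadjusted p under 0.05, 6 were higher and 1 was lower, beside 11.4% and 10.4% of all tested genes. The 6 were Ctsc, Nkg7, Rab27a, Stxbp2, Ap3b1 and Vamp8. The last 4 had log2 fold changes of 0.72 (SE 0.26), 0.44 (SE 0.13), 0.61 (SE 0.18) and 0.38 (SE 0.13). DESeq2 called 1, where it called 10.4% of its tested genes. Ctsc, the gene of cathepsin C, the protease that activates granzymes, was at 572 and 557 CPM against 308 and 336 CPM, a log2 fold change of 0.81 (SE 0.16), and was the gene that DESeq2 called. It and Lamp1, a lysosomal membrane protein gene, are made in many cell types. Nkg7, a granule protein gene of cytotoxic lymphocytes, was at 7.05 and 7.48 CPM against 3.73 and 4.12 CPM, a log2 fold change of 0.89 (SE 0.24), with no overlap. Srgn, the gene of the proteoglycan serglycin that packs granzymes, went the other way, at 146 and 109 CPM against 242 and 171 CPM, a log2 fold change of -0.70 (SE 0.25). Fasl, the gene of the death ligand used beside granzymes, overlapped at 2.86 and 3.23 CPM against 3.20 and 3.46 CPM.

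Serpins that inhibit granzymes, and their relatives, were also compared. Of 11, 6 were tested and 5 had 0 reads in all samples, and none was called by the quasi-likelihood test. At an unadjusted p under 0.05, 4 were higher and 1 was lower, beside 11.4% and 10.4% of all tested genes. Calls by DESeq2 were 2 higher and 1 lower, where 10.4% of its tested genes were called. The likelihood ratio test gave the same calls, where 9.39% of all genes were called. Serpinb9, the mouse inhibitor of granzyme B, was at 117 and 113 CPM in the K-Ras Mll4-/- samples and 72.4 and 79.2 CPM in the K-Ras samples, a log2 fold change of 0.60 (SE 0.12). Serpinb6b was at 122 and 159 CPM against 49.4 and 63.4 CPM, a log2 fold change of 1.32 (SE 0.21). For each of them both K-Ras Mll4-/- samples were above both K-Ras samples, where 29.9% of all tested genes were. Each was also called by DESeq2. Serpina3n, an acute phase serpin gene, was at 38.4 and 37.8 CPM against 264 and 106 CPM, a log2 fold change of -2.28 (SE 0.47), and was called by the quasi-likelihood test without K-Ras replicate 1.

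Genes of granzyme substrates and uptake in target cells numbered 13, all tested and none called by the quasi-likelihood test. Both K-Ras Mll4-/- samples were above for 7 and below for 2, beside 29.9% and 28.5% of all tested genes. At an unadjusted p under 0.05 there were 3, all higher, where 11.4% of all tested genes were higher. DESeq2 called 1, where it called 10.4% of its tested genes. Bid, the gene of a pro-apoptotic protein cut by granzyme B, overlapped, at 10.4 and 9.68 CPM against 9.97 and 5.26 CPM. Set, which encodes a target of granzyme A, had a log2 fold change of 0.55 (SE 0.14). Igf2r, a receptor proposed to take up granzyme B, overlapped, with a log2 fold change of 0.01 (SE 0.22).

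Along chromosome 14, Gzme is the granzyme gene nearest to the mast cell proteases. In RefSeq order the protein-coding genes run Cma1, Cma2, Mcpt1, Mcpt2, Mcpt9, Mcpt4, Mcpt8, Ctsg, Gzme, Gzmd, Gzmg, Gzmn, Gzmf, Gzmc and Gzmb. Ctsg, the cathepsin G gene next to Gzme, had 5 and 3 reads in the K-Ras Mll4-/- samples against 8 and 0, and Gzmn had 0 in all 4. Beyond Ctsg, Mcpt8 was at 24.2 and 36.8 CPM against 0.589 and 1.38 CPM, a log2 fold change of 4.93 (SE 0.51). Its values were higher in replicate 2 of each group.

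Further along, Mcpt1 was at 1451 and 312 CPM against 1.01 and 0.913 CPM, and Mcpt2 at 431 and 93.1 CPM against 1.21 and 0.360 CPM. Both were far higher in replicate 1 than in replicate 2 of the K-Ras Mll4-/- group. Mcpt4, a chymase gene of connective tissue mast cells, was at 2.78 and 1.02 CPM against 0.654 and 0.553 CPM, and was also higher in replicate 1, as Gzmc was. High and undetected genes alternated along the cluster, and the genes at its outer ends, Cma1 and Gzmb, overlapped between groups, with log2 fold changes of -0.36 (SE 0.52) and -0.02 (SE 0.42). Of the 9 listed neighbours, 5 were tested and none was called by the quasi-likelihood test. At an unadjusted p under 0.05 there were 4, all higher, where 11.4% of all tested genes were higher. DESeq2 called 10.4% of its tested genes and the likelihood ratio test 9.39%. Both DESeq2 and the likelihood ratio test called Mcpt1, Mcpt2 and Mcpt8, and without K-Ras replicate 1 the quasi-likelihood test called Mcpt8.

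**Figure D4:**
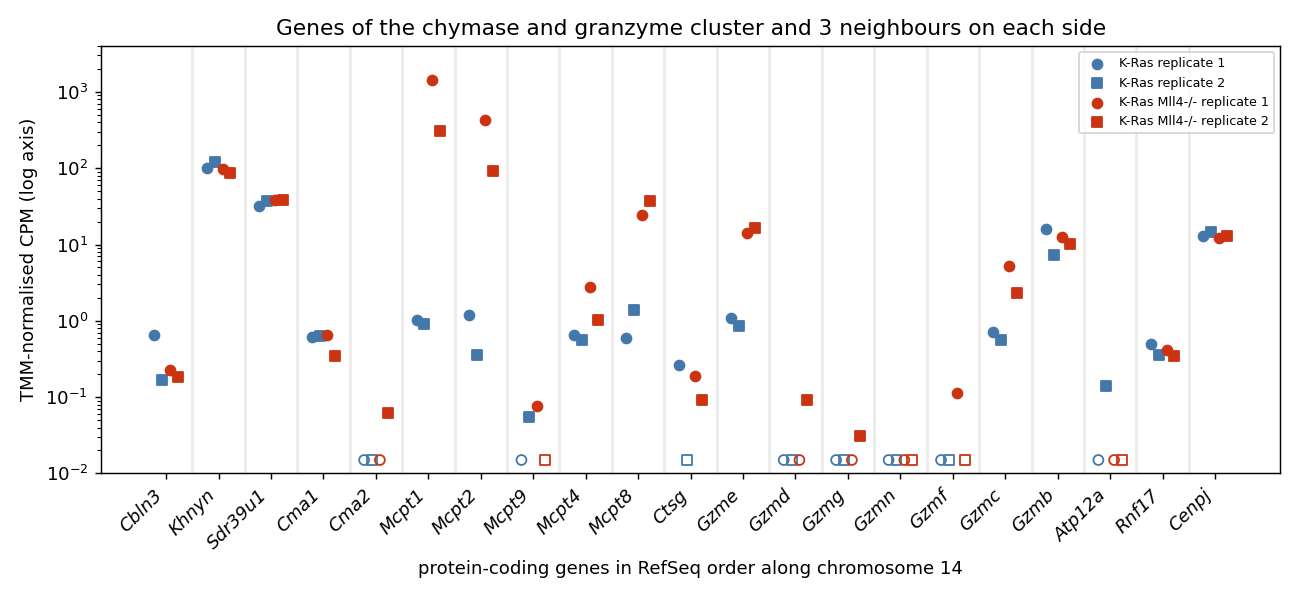
Level in each sample of the protein-coding genes of the cluster and 3 neighbours on each side, in RefSeq order along chromosome 14, as TMM-normalised CPM on a log axis. Points are samples and open points at the bottom mark 0 reads. Mcpt1, Mcpt2, Mcpt4, Mcpt8, Gzme and Gzmc are higher in both K-Ras Mll4-/- samples, with genes at or near 0 reads among them. The tested flanking genes have log2 fold changes from -0.27 (Khnyn, lower in both) to 0.12 (Sdr39u1). Cbln3 and Atp12a have few reads and were not tested.

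The products of Mcpt1 and Mcpt2 are known from mucosal mast cells and that of Mcpt8 from basophils, so markers of these cells are given beside them. Of 9 mast cell markers 6 were tested and none was called by the quasi-likelihood test. In both K-Ras Mll4-/- samples 1 was higher (Mcpt4), 2 were lower (Kit and Hdc) and 3 overlapped. Of all tested genes, 29.9% were higher and 28.5% lower in this way. At an unadjusted p under 0.05, 1 was higher (Mcpt4) and 1 lower (Kit), beside 11.4% and 10.4% of all tested genes. Kit, with a log2 fold change of -1.07 (SE 0.15), was called lower by DESeq2 and the likelihood ratio test. These tests called 10.4% and 9.39% of their tested genes. Hdc had a log2 fold change of -1.19 (SE 0.56). The summed level of the 9, most of it Kit, which other lung cells also express, was 164 and 143 CPM in the K-Ras Mll4-/- samples against 265 and 373 CPM in the K-Ras samples. Cpa3, the mast cell carboxypeptidase gene, was at 0.952 and 1.18 CPM against 0.785 and 1.27 CPM, and Ms4a2, a chain of the IgE receptor, at 1.83 and 1.99 CPM against 0.916 and 3.43 CPM. Both overlapped between groups. Tpsb2, a mast cell tryptase gene, had 0 and 1 reads against 4 and 0, and Tpsab1, another, had 2 and 20 reads against 0 and 0. Of the 3 basophil markers, Mcpt8 itself made up most of the summed 25.4 and 38.4 CPM against 1.08 and 2.55 CPM. Prss34 was at 0.343 and 0.683 CPM against 0.164 and 0.0830 CPM, the last on 3 reads, and Cd200r3 at 0.876 and 0.900 CPM against 0.327 and 1.08 CPM. The part of either cell type in the Gzme and Gzmc levels was not tested.

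The genes whose profile over the 4 samples was most like that of Gzme were then taken from all 16001, by the root mean square difference of log2 CPM after each profile was centred on its own mean. The nearest 5 were Gpa33 (0.13), Sox9 (0.15), Tns4 (0.20), 4930546K05Rik (0.21) and Tpd52l1 (0.25). Gpa33 encodes an intestinal epithelial surface antigen, Sox9 a transcription factor of epithelial progenitors and Tns4 a focal adhesion protein. Gpa33 was at 12.2 and 17.7 CPM against 0.916 and 0.802 CPM, close to Gzme in level as well as in profile. Sox9 was at 40.9 and 46.1 CPM against 4.02 and 2.96 CPM. Among the other members tested, Gzmc was 132nd by this measure (0.91) and Gzmk 460th (1.35), and Gzma, Gzmb, Prf1 and Gzmm had ranks of 2693, 7347, 10857 and 12211. With 4 samples the measure mostly reflects the difference between the groups.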

How the data were processed

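The deposited values were raw read counts per gene symbol, made by the authors with CASAVA 1.4, STAR and HTSeq on the build mm9, per the submitters' processing notes, which give no roles or settings. Annotation, strand setting and read length are not given in the sources used here. The 5 tally lines of each file were left out. Counts of all genes were fitted in edgeR 4.0.16 (R 4.3.3) with the default filter (filterByExpr), TMM scaling and the robust quasi-likelihood test. Benjamini-Hochberg adjustment was used with a threshold of 0.05. The fit was run on simulated counts with large planted changes and a common spread for all genes. That run does not show how the fit performs at the spread of these replicates. The SE of a log2 fold change is its size over the square root of F. DESeq2 1.42.0 and limma 3.58.1 (voom) were alternatives, beside other scalings, filters, the replicate number as a block and leaving out each sample. The replicates of a group differed far beyond sampling noise (chi-square per gene 47.3 and 122) and were kept apart.

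The members and gene lists were chosen with earlier results of these data known. Named genes were the members, genes of the lists and the 5 nearest profiles. Label checks used Kmt2d, Epcam, Sftpc and Ptprc, and Nkx2-1, Sox9, Gpa33 and Tns4 were looked up by name with them. Identity and motifs used Biopython 1.88, RefSeq promoters of GRCm38.p6 matched by symbol (10 of 10 members) and GENCODE M21 transcripts, on a later build than the counts. Single-library intervals were exact (Poisson or Clopper-Pearson). Some genes of the lists are counted but not reported here by name.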

Additional observations from a re-analysis of the deposited data

How the results depend on the processing

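The number of genes called across the whole table was 6 by the quasi-likelihood test and 44 with no count filter, 1601 by DESeq2, 1503 by the likelihood ratio test and 0 by limma-voom. With each sample left out in turn it was 0 to 528, the highest without K-Ras replicate 1, and in these fits the lone sample of a group is assumed to vary like the other group. Other scalings and a filter of 1 CPM gave 5 to 7. The log2 fold change of Gzme stayed above 0 in every fit run. Its adjusted p was 0.0717 in the reported fit and ranged from 2.14e-23 (DESeq2) to 0.540 (without K-Ras Mll4-/- replicate 2). It was called with no count filter (log2 fold change 3.998), with DESeq2 and the likelihood ratio test (3.99 each), and it ranged from 3.82 to 4.16 with single samples left out, called there only without K-Ras replicate 1 (4.16). Gzmc was called by DESeq2 (2.55) and the likelihood ratio test (2.56) and by no other fit, and ranged from 1.87 to 3.02 with single samples left out. Of the members near 0, Gzmb turned to 0.091 with limma-voom and ranged from -0.49 to 0.64, and Gzmm from -0.82 to 0.18, with single samples left out. The cause of these differences was not tested.

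With the replicate number as a block, 217 genes (1.36%) were called, Gzme was called (log2 fold change 3.99, adjusted p = 0.0206 by edgeR), Gzmc was not (2.47), and Gzmb turned to 0.068. Of the genes listed beside the members, Mcpt1, Mcpt2, Mcpt8 and Serpinb6b were also called with it. Deviations of same-numbered samples from their group means correlated at 0.21 across genes, and the labels do not say what a number shares, so the samples are not taken as pairs. Depth limits Gzmd, Gzmf, Gzmg and Gzmk.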

Other observations

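The profile of Gzmc over the 4 samples was nearest to those of Tmem117 (root mean square difference 0.19 on the log2 scale), Adtrp (0.22), Cela1 (0.23), Lhx2 (0.24) and Alpk2 (0.26). Cela1, the gene of an elastase-like serine protease, was at 14.4 and 4.78 CPM in the K-Ras Mll4-/- samples and 1.90 and 1.08 CPM in the K-Ras samples. None of these 5 was among the nearest 5 of Gzme, which ranked 820th for Gzmc.

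Other leukocyte genes are given as values. Of 6 B and plasma cell markers, the plasma cell genes Jchain and Mzb1 were lower in K-Ras Mll4-/- tumours. Their log2 fold changes were -1.13 (SE 0.36) and -1.30 (SE 0.29). Neither was called by the edgeR quasi-likelihood test. Both were called by DESeq2 and the likelihood ratio test, which called 10.4% and 9.39% of their tested genes. The B cell gene Cd79b had a log2 fold change of 0.01 (SE 0.26). Of 10 myeloid markers, none was called by the quasi-likelihood test. An unadjusted p under 0.05 was found for 1 (Itgam), beside 21.8% of all tested genes. DESeq2 and the likelihood ratio test also called it, where they called 10.4% and 9.39%. In both K-Ras Mll4-/- samples 3 were lower, where 28.5% of all tested genes were, and 7 overlapped. The median log2 fold change was -0.19. Itgam, the gene of CD11b, was at 17.3 and 13.4 CPM against 63.3 and 26.9 CPM.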
